A study of Mus musculus with 2 samples.

Results

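The 2 wild type RNA samples of an embryonic brain study were described on their own, from the green (Cy3) channel of 2 Agilent SurePrint G3 mouse arrays. They are 2 of the 4 RNA samples in the series. Both came from C57BL/6 embryos at E10.5, counted in embryonic days, and the tissue was the forebrain and midbrain per the methods, although the labels say only brain. The other 2 samples, from luxoid embryos (Plzf lu/lu, which carry a mutated Zbtb16 gene), were labeled with Cy5 and hybridized together with the wild type samples, 1 of each per array. The dyes were not exchanged, and both arrays lay on 1 slide. The labels call the samples biological replicates, and the number of embryos behind each is not given in the sources used here. The members were all 37071 gene names with a usable probe, and each gene was represented by its brightest probe. The values are processed signal, that is the brightness of a spot once the scanner software had taken off the background and balanced the dyes. With 2 samples of 1 group there was no comparison to test, so each value is given for both arrays and the spread between them is described.

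At E10.5 the anterior neural tube consists mostly of dividing neuroepithelial cells, and its regions are set apart by transcription factors. Emx genes mark the dorsal telencephalon, Otx2 marks the forebrain and midbrain, and En2 and Pax2 mark the midbrain and its border with the hindbrain, whereas Hox genes are used farther back. Signals from Shh, Wnt, Fgf and Bmp proteins pattern this tissue, and Notch signaling through Hes genes keeps cells in the progenitor state. The head of the embryo also contains mesenchyme, surface ectoderm, vessels and circulating blood. Most red cells at this stage are primitive erythrocytes from the yolk sac, which use the embryonic globins Hbb-y, Hbb-bh1 and Hba-x.

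Signal above background was found for a majority of genes, and strong signal for fewer. A gene was well above background, by the scanner software's flag, on both arrays for 23354 gene names (63% of all), and on at least 1 array for 27942. A stricter class, called positive here, needs a processed signal above 200 and a signal-to-noise ratio of at least 5, the study's own limits. It held 11046 genes on array 1, 11005 on array 2 and 10793 on both (29.1%). The looser flag included genes of no known role in the neural tube, since 374 of 1086 olfactory receptor genes, which are used mainly in the nose, carried it on both arrays and only 5 of them were positive. The same held for the vomeronasal receptors, of which 70 of 259 were well above background and 1 was positive.

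The limit of detection was lower on array 2. The spread of the negative control spots was 12.9 on array 1 and 7.15 on array 2, and the dimmest spot well above background had a signal of 12.3 on array 1 and 6.85 on array 2. In all 23469 genes were well above background on array 1 and 27827 on array 2. No gene spot was saturated in the Cy3 channel. In the middle of the ranking of all genes the signal was 33.3 on array 1 and 37.2 on array 2, and at the top it was 146807 and 113105.

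A percentile is used below for the place of a gene's signal among all 37071 genes of its array. It ranks the brightness of probes, which also depends on how well each probe binds, and is no measure of transcript number. In 7147 genes with 2 probes of unrelated sequence well above background on both arrays, the brighter probe exceeded the other by a median of 3.77-fold, and by more than 10-fold in 23.9% of them. Differences in percentile between genes are therefore given as descriptions only. The same probe on the 2 arrays does not have this limit.

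The 2 wild type channels were close to each other. Over the 10793 positive genes log2 signals correlated across genes with r = 0.995 (Pearson) and rho = 0.991 (Spearman), where genes are not independent replicates. After each array was scaled to its 75th percentile, 95.3% of these genes lay within 1.3-fold of each other and the SD of the log2 difference was 0.21. The SD was 0.34 over genes well above background on both arrays and 0.53 over those well above background on at least 1. When the genes well above background on both arrays were cut into 4 classes of equal size by signal, the SD was 0.46 in the dimmest class, with signals from 9.61 to 42.2, and 0.20 in the brightest class, from 858 upward. The arrays carry 10 spots for each of 296 probes. The median SD of the log2 signal among single spots within an array was 0.06 for the positive probes on each array. Between arrays, the values of these probes, averaged over their spots, had a median absolute difference of 0.07 and an SD of the difference of 0.205. The spread of single spots and the difference of averages are unlike measures. The log2 signal of the 10 spike-in transcripts was higher on array 1, with a median of 0.22 and a range from 0.01 to 0.29, which shows the size of shift that control RNA had.

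By mean percentile over both arrays, the brightest probes belonged to genes of protein synthesis, chromatin and the cell's basic machinery. On array 1 alone the globins Hbb-y, Hba-a1 and Hba-a2 ranked 1, 3 and 4, while on array 2 they ranked 134, 214 and 245. Hbb-bh1, at 129706, lay between Hbb-y and Hba-a1 on array 1. Rpl41, a protein of the large ribosomal subunit, had a signal of 109313 on array 1 and 107727 on array 2. Ppia, a peptidyl-prolyl isomerase, had 91398 and 100507. Rn18s, the 18S ribosomal RNA, had 108344 and 98740. For these 3 genes the log2 differences between the samples ran from -0.15 for Ppia to 0.12 for Rn18s. The histone gene Hist1h2ah ranked highest by mean percentile, with 110120 and 113105, but its probe shares a stretch of 20 bases with probes of 9 other gene names, and the signal cannot be assigned to 1 of them. The other genes among the 15 highest were AK140265 (a mitochondrial transcript by its probe's chromosome), Rps18, Exosc2, Hist1h2ag, Rps20, Furin, Rps14, Rps12 and 3 transcripts with Ensembl names only.

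Some of the brightest probes share sequence with probes of other names, so their signal cannot be assigned to 1 gene. Binding across names was not measured. The top probe of Furin, a protease, gave 79626 and 89074, shares 20 bases with probes of 13 other gene names, and stood beside a second Furin probe at 326 and 284. The top probe of Sox5, a transcription factor, gave 23888 and 24526 and shares 20 bases with probes of 8 other names, while the next Sox5 probe gave 38.2 and 34.4. The Exosc2 probe shares such a stretch with Milr1. Among the 100 highest genes, 61 had a probe that shares 20 bases with a probe of another name, against 5.36% of all genes. In 14 of the 45 genes with more than 1 probe among these 100, the second probe was more than 10-fold dimmer on array 1.

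Genes that every cell uses were bright and steady. All 22 reference genes were positive on both arrays, against 29.1% of all genes, with a median percentile of 98.4 on each array and a median difference of -0.08 (log2, array 1 minus array 2), against -0.07 over all 27942 genes well above background on at least 1 array. Actb, cytoplasmic actin, had a signal of 43609 on array 1 and 47090 on array 2. Gapdh, a glycolytic enzyme, had 64384 and 62277. Tbp, the TATA-binding protein, was the dimmest reference gene, with 308 and 338. Differences in the list ran from -0.24 to 0.54.

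Ribosomal, respiratory and cell cycle genes followed the same order on both arrays. Of 81 ribosomal protein genes, 77 were positive, and the list's median percentile was 99.6 on array 1 and 99.5 on array 2. Their probes made up 8.22% of the summed signal on array 1 and 8.43% on array 2. The ribosomal genes not positive were Rpl37 (43.5 and 48.5) and the tissue-restricted copies Rpl39l, Rpl3l and Rpl10l, none of which was well above background on both arrays. Of 79 respiratory chain genes, 74 were positive with median percentiles of 97.2 on each array, led by Cox6a1, a subunit of cytochrome c oxidase, at 52264 and 53365. The cell cycle list had 33 of 34 genes positive and medians of 95.2 and 95.0, and the median difference was -0.0026 in the respiratory list and 0.00031 in the cell cycle list. The brightest cell cycle members were Ccnd2, a G1 cyclin, at 22833 and 25291, and Cdk4, its kinase partner, at 23912 and 24050. Mki67, which marks dividing cells, had 6106 and 5546, and Ccne2 was the dimmest member at 30.5 and 37.6.

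**Figure D1:**
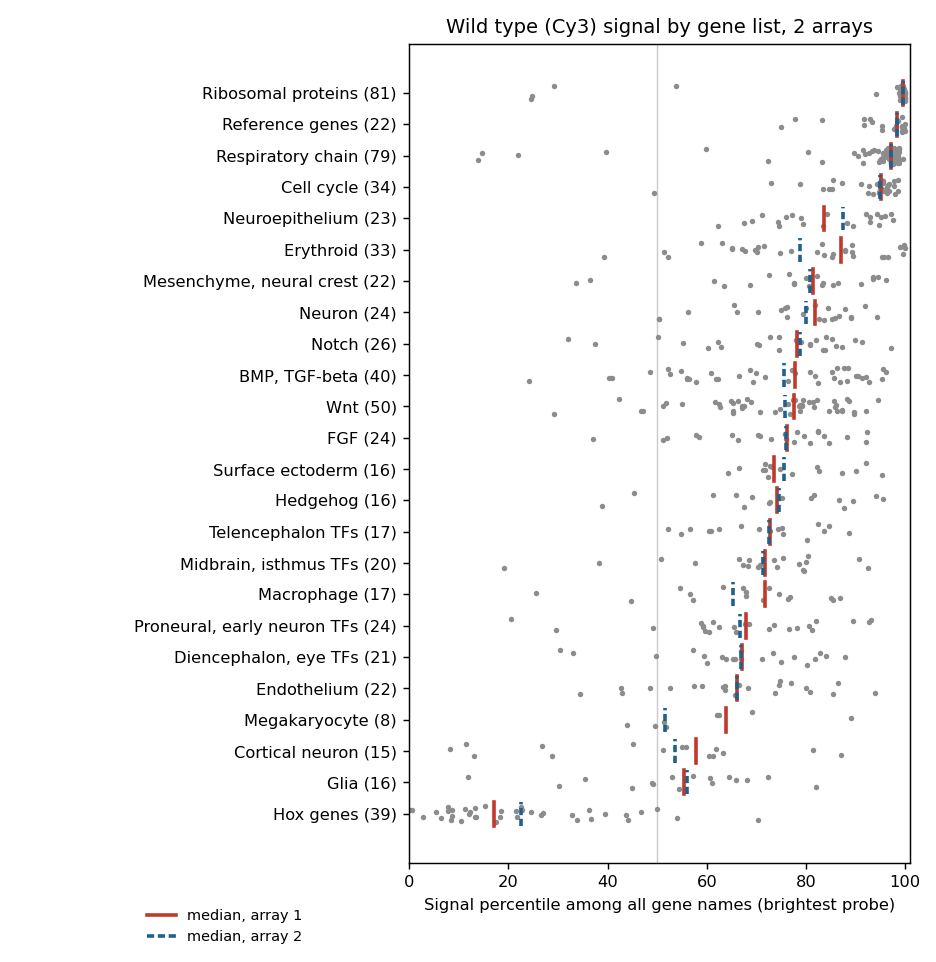
Each grey point is 1 gene of the list named at the left (number of genes in parentheses, TF for transcription factor), placed on the horizontal axis by its mean signal percentile over both arrays among all gene names, with vertical jitter only for visibility. Solid red and dashed blue bars are the list medians on array 1 and array 2. The ribosomal, reference, respiratory and cell cycle medians lie at 95 or above, the Hox median at 17.0 and 22.6, and the medians of the erythroid and megakaryocyte lists are farther right on array 1 than on array 2.

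Regional transcription factors were at moderate brightness. In the telencephalic list all 17 genes were well above background on both arrays, against 63% of all genes, and 9 were positive. The median percentile was 72.8 on array 1 and 72.6 on array 2. Lhx2, a LIM homeodomain factor of the dorsal forebrain and eye, had 2070 on array 1 and 1196 on array 2. Emx2, a dorsal telencephalic homeodomain factor, had 1212 and 675. Both were brighter on array 1, by 0.78 and 0.83 on the log2 scale. Nr2e1, a nuclear receptor of forebrain progenitors, was nearly equal at 706 and 699, and Dlx1, a factor of the ventral telencephalon, was the dimmest of the list at 31.4 and 52.7.

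The diencephalic and eye factors reached similar values. Of these 21 genes, 19 were well above background on both arrays and 9 were positive, with median percentiles of 67.1 and 66.9. Dbx1, a homeodomain factor of neural progenitors, led with 1397 and 1365. Irx3 and Irx1, Iroquois factors used behind the anterior forebrain, had 771 and 947, and 600 and 883. Rax, needed for the eye field and hypothalamus, had 242 on array 1 and 436 on array 2.

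Among midbrain and isthmus factors, Otx2 was the brightest, with 2699 on array 1 and 2941 on array 2. En2, a homeodomain factor of the midbrain and isthmus, had 1917 and 2310. Pax3, expressed in the dorsal neural tube, had 497 and 583, and Foxa2, a floor plate factor, had 288 and 394. Of the 20 genes in the list 19 were well above background on both arrays and 11 were positive. The exception was En1, the paralog of En2, whose only probe gave 3.86 and 3.70 and was not well above background on either array. A low value of a single probe does not show that the gene is silent.

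Genes of more posterior identity were dim. None of the 29 hindbrain and spinal cord genes was positive on both arrays, and 8 were well above background on both, against 63% of all genes. The list's median percentile was 28.0 on array 1 and 25.8 on array 2. In the whole Hox family the counts were 8 of 39 and 0, with medians of 17.0 and 22.6, below the medians of the 1086 olfactory receptors (26.9 and 28.7). Hoxb3 stood out at 220 and 182, but its probe shares a 20-base stretch with the probe of Nkx1-1 (360 and 311). A second Hoxb3 probe gave 148 and 156. The dissection of forebrain and midbrain stated in the methods could be checked here only through such markers.

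**Figure D2:**
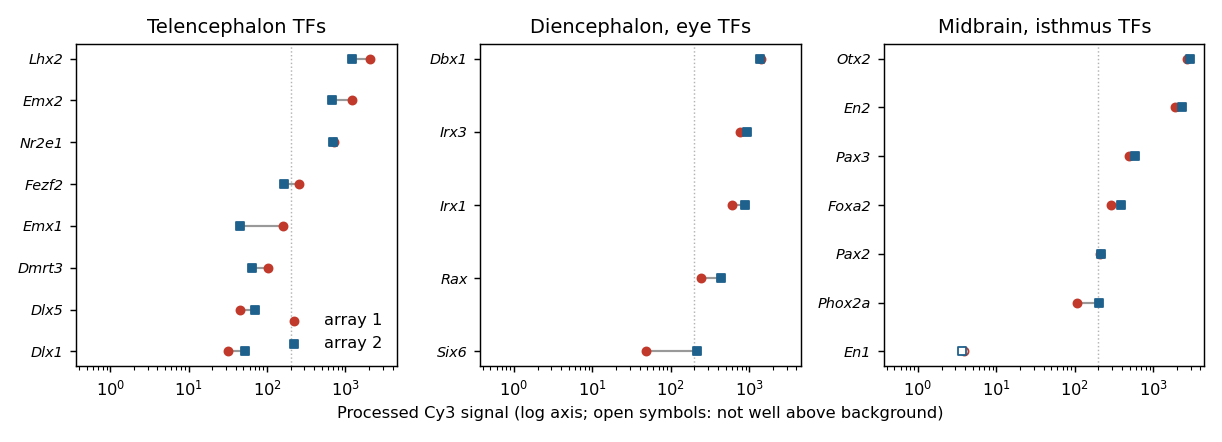
Processed Cy3 signal (horizontal log axis, no unit) of regional transcription factors described in the text on array 1 (red circles) and array 2 (blue squares), joined by a line, with open symbols where the probe was not well above background and a dotted line at the minimum of 200 used for positive genes. Otx2 and En2 are bright in both samples, Lhx2, Emx2 and Emx1 lie to the right on array 1, and Six6 and Rax lie to the right on array 2.

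Progenitor genes were bright. In the neuroepithelial list all 23 genes were well above background on both arrays and 20 were positive, with median percentiles of 83.6 on array 1 and 87.5 on array 2. Vim, an intermediate filament of neural progenitors, had 13875 and 12721. Hes5, a Notch effector that keeps progenitors from differentiating, had 11475 and 11612, although a second Hes5 probe gave only 249 and 276. Nes, the intermediate filament nestin, had 4845 and 3794. Among Sox factors of neural progenitors, Sox2 had 1402 and 1496, Sox3 had 1657 and 1760, and Sox1 had 527 and 481. Sox1, Sox2 and Sox3 were equal between the samples within 0.12 on the log2 scale. Sox9, also in this list, had 339 and 269, and its second probe differed by 0.38. Lin28a, an RNA-binding protein of early embryonic cells, had 599 on array 1 and 1296 on array 2, a difference of -1.12, and its second probe differed by -0.91. Its paralog Lin28b had 2555 and 3952 (-0.64, and -0.57 by its second probe).

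Genes of neurons were present beside those of progenitors. All 24 neuronal genes were well above background and 18 were positive, with median percentiles of 81.8 and 80.0. Dpysl3 and Stmn2, which act on the cytoskeleton of growing axons, had 4338 and 4125, and 2647 and 2482. Tubb3, the neuronal tubulin, had 1491 and 1276. Of the 24 genes, 18 were brighter on array 1, by at most 0.57 and with a median difference of 0.14. Over the 27942 genes well above background on at least 1 array the share was 39.2%. That share counts 4473 genes well above background on array 2 alone. Over genes well above background on both arrays the median difference was -0.03. Among the 24 proneural and early neuronal factors, 22 were well above background and 10 were positive, led by Sox4 (3367 and 3185), Sox11 (3028 and 2854) and Hes6 (1909 and 1586). The proneural bHLH factor Neurog2 was dimmer, at 160 and 147, and was well above background but not positive on either array.

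Few genes of later neurons and of glia were positive, and their list medians lay slightly above the middle of the range. The median percentiles were 57.9 and 53.6 for the cortical neuron list, and 55.5 and 55.9 for the glial list. The cortical neuron list had 10 of 15 genes well above background on both arrays (66.7%) and 2 positive. The glial list had 13 of 16 (81.25%) and 1. Over all genes these shares were 63% and 29.1%. Cux1 and Pou3f2, which progenitors also use, were the positive cortical genes, at 1355 and 1125, and 595 and 665. Neurod6 and Rorb, factors of maturing cortical neurons, were not well above background on either array. Mbp, a myelin protein gene with a separate transcript outside myelin, was the positive glial gene at 653 and 695, while its second probe gave 18.9 and 17.0. Gfap, an astrocyte filament, was well above background only on array 2, at 18.9.

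In each signaling pathway list, between 92.3% and 100% of genes were well above background on both arrays, against 63% of all genes. Between 55% and 66.7% were positive, against 29.1%. Of the 16 Hedgehog genes 15 were well above background on both arrays and 10 were positive. The ligand Shh had 536 on array 1 and 677 on array 2, while Dhh had 32.4 and 20.8, and Ihh had 24.3 on array 2 and was not well above background on array 1. Its receptor Ptch1 had 213 and 295, and the transducer Smo had 5792 and 6145. The transcription factors followed, with Gli3 at 1833 and 1643, Gli1, a direct target, at 1140 and 1225, and Gli2 at 148 and 153. Ptch1 had the largest difference between the samples among the positive Hedgehog genes, -0.48.

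In the Wnt list 49 of 50 genes were well above background and 29 were positive. Ctnnb1, which encodes beta-catenin, was the brightest at 4273 and 4444. Among the ligands, Wnt7b had 1439 and 1101, Wnt5b 905 and 919, Wnt1 433 and 341, and Wnt8b, a ligand of the dorsomedial forebrain, 703 and 320. The target genes Lef1 and Axin2 were steady, at 1405 and 1461, and 384 and 354. Wnt8b was the only positive Wnt gene over 2-fold apart, by 1.13 on the log2 scale. Among genes that were not positive on both arrays, Dkk2, a secreted Wnt inhibitor, was brighter on array 1 by 1.27 and Lgr5, an R-spondin receptor, brighter on array 2 by 1.13.

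Fgf and Bmp genes were also well covered. All 24 Fgf genes were well above background and 16 were positive, and no member was 2-fold apart. The ligand Fgf8, made at the isthmus and the anterior forebrain, had 545 and 494, the receptor Fgfr1 had 2672 and 2576, and the feedback inhibitor Dusp6 had 2591 and 2923. In the Bmp and Tgf-beta list 39 of 40 were well above background and 22 were positive. Bmp7 and Bmp4 had 1439 and 1559, and 1179 and 1217, and the target genes Msx1 and Id3 had 7103 and 7295, and 5843 and 5471. The antagonists were dim, with Nog at 52.5 and 32.9 and Chrd at 62.0 and 49.3.

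Notch genes were the steadiest of the pathway lists by range. Of 26 genes 24 were well above background and 17 were positive, and differences ran from -0.55 to 0.27. Besides Hes5, the receptor Notch3 had 2399 and 2231, the ligand Dll3 had 419 and 463, and Dll1 had 187 and 228. Notch1, a main receptor in neural progenitors, was dim by its probe, at 97 and 87.8. In the retinoic acid list all 18 genes were well above background and 10 were positive, led by Crabp1, a retinoic acid binding protein, at 36265 and 34354. Aldh1a3, an enzyme of retinoic acid synthesis in the eye and ventral forebrain, had 291 on array 1 and 700 on array 2 (-1.28), and its second probe differed by -1.31.

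Transcription factors of 14 families, pooled into 1 list, lay above the middle of the range but outside the very top. These families (Sox, Pax, Hox, Lhx with Isl and Lmx, the Six6 family, Irx, Zic, Nkx, Fox, Hes with Hey, Pou, Tbx, Klf with Sp, and Zbtb) held 258 genes, of which 211 were well above background on both arrays and 95 were positive. These shares are 81.8% and 36.8%, against 63% and 29.1% of all genes, and the pooled median percentiles were 63.5 and 62.9, while the Hox family alone lay far below the middle. None of these genes was among the 100 highest. Apart from the Sox5 probe described above, the highest were Foxl2 at 12583 and 12295 and Hes5. Foxl2 is known from the ovary and the eyelid, and it has a single probe here. Next came Zic1, a zinc finger factor of the dorsal neural tube, at 5032 and 5717, Foxp4 at 3963 and 3288, Sox4 and Sox11.

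Within families the members were spread widely. Zic1 had 5032 and 5717 and Zic2 73.1 and 160, although the 2 Zic2 probes differed in direction (-1.14 and 0.27). Of the Pax genes only Pax3, Pax6 and Pax2 were positive, while Pax4, a factor of the pancreas, was not well above background. Of the 39 Zbtb genes 38 were well above background and 19 were positive. The gene mutated in luxoid mice, Zbtb16, was among the positive ones, at 433 on array 1 and 546 on array 2, which are percentiles of 77.9 and 80.2. Its second probe gave 32.1 and 32.2. Zbtb12 and Zbtb5 were brighter in their family, at 2257 and 2752, and 1370 and 1399. All 6 Irx genes were brighter on array 2, by 0.07 to 0.57, the direction of 60.8% of the 27942 genes well above background on at least 1 array. That share counts genes well above background on array 2 alone, while all 6 Irx genes reached that level on both arrays.

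Pax6, a forebrain factor followed in the study, was positive on both arrays. Pax6 had 345 and 464 (percentiles of 75.6 and 78.6), and a second probe gave 102 and 142 with nearly the same difference between the samples, -0.48 against -0.44.

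Other tissues of the embryonic head contributed clear signal. Of 22 genes of mesenchyme and neural crest, 21 were well above background on both arrays and 16 were positive, with median percentiles of 81.5 and 80.8, close to those of the neuronal list. Col1a2, a collagen chain, had 5266 and 3807, and Prrx2, a factor of craniofacial mesenchyme, had 3690 and 3328. Twist1, needed in head mesenchyme, had 730 and 636, while Sox10, the neural crest factor, had 80.9 and 90.2. In a bulk sample, more cells of a type and more RNA per cell cannot be told apart.

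Genes of surface ectoderm, vessels and smooth muscle gave signal too. Over all genes, 63% were well above background on both arrays and 29.1% were positive. All 16 surface ectoderm genes were well above background and 13 were positive. Krt18 and Krt8, keratins of simple epithelia, had 4696 on array 1 and 6990 on array 2, and 2233 and 3295. Cdh1, epithelial cadherin, had 254 and 391. In this list 13 of 16 genes were brighter on array 2, against 60.8% of the 27942 genes. That share counts genes well above background on array 2 alone. The list's median difference was -0.38, and none was over 2-fold. Of 22 endothelial genes 21 were well above background and 9 were positive, led by Egfl7 (3687 and 4141) and Cd34 (951 and 1410), with a median difference of -0.06. Of 11 mural cell genes all were well above background and 4 (36.4%) were positive, led by Acta2, smooth muscle actin, at 6340 and 4897. The second Acta2 probe gave 575 and 580. Tagln was also bright, at 3477 and 3086, while Cnn1 had 106 and 79.0 and Myh11 had 48.0 and 80.1.

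Few markers of organs outside the head were positive, although many were above background. In the heart and muscle list 10 of 16 genes (62.5%) were well above background on both arrays, near the 63% of all genes. Myl7, an atrial myosin light chain, was the positive gene at 299 and 379. Tnni1 had 141 and 186 and Actc1 had 140 and 120, while Tnnt2 and Myl2 were not well above background. In the liver and yolk sac list 7 of 15 genes were well above background on both arrays. The positive gene was Apoa2, at 747 and 712, while Afp, Apoa1, Ahsg, Fgb and Fgg were not well above background. Ttr, made by yolk sac, liver and choroid plexus, had 380 on array 1 and was not well above background on array 2, so it was at least 55.2-fold brighter on array 1. No germ cell or pluripotency gene was positive on both arrays, although 8 of 15 were well above background on both. Tdgf1 had 199 and 205, and Pou5f1 had 194 and 177. Xist, the transcript of the inactive X chromosome, had 20.7 and 29.9, and the Y-linked genes Eif2s3y, Kdm5d and Ddx3y had 259 and 318, 158 on each, and 41.8 and 43.4, all well above background.

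The blood genes separated the 2 wild type samples. All 33 erythroid genes were well above background on both arrays, against 63% of all genes, and 20 were positive. Hbb-y, the embryonic epsilon-type globin, had 146807 on array 1 and 56549 on array 2. Hbb-bh1, another embryonic beta-type globin, had 129706 and 71246. Hba-x, the embryonic zeta globin, had 64597 and 18101. Hbb-bt, an adult beta globin, had 16629 and 3621. Array 1 was higher for each of these, and Hbb-y was its brightest gene of all.

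Of the 33 erythroid genes 32 were brighter on array 1, and 25 by more than 2-fold, against 1.19% of the 27942 genes well above background on at least 1 array (333 genes). None was over 2-fold brighter on array 2, against 6.31% of those genes (1763 genes). Of the 1763 genes 210, and of the 333 genes 222, were well above background on both arrays, as all 33 erythroid genes were. The list's median difference was 1.52, and without the 8 globins it was 1.53 over 25 genes, 19 of them over 2-fold. The 8 globin probes made up 1.18% of the summed signal on array 1 and 0.475% on array 2. Over positive genes, 38 (0.352%) were over 2-fold brighter on array 1, and 14 of these were erythroid, while 12 (0.111%) were over 2-fold brighter on array 2 and none of them was in the erythroid, megakaryocyte or macrophage list.

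The difference covered each class of erythroid gene. Among transcription factors, Gata1 had 565 and 180, Klf1 259 and 95.7, and Nfe2 352 and 113. Epor, the erythropoietin receptor, had 685 and 236. Heme synthesis was represented by Alas2, its erythroid entry enzyme, with 2606 and 806, Cpox with 1236 and 560, and Fech with 2425 and 1284. Slc4a1, the band 3 anion exchanger of the red cell membrane, had 2909 and 762. Ahsp, the chaperone of alpha globin, had 3629 and 941. For the genes of this paragraph array 1 was higher by 0.91 to 1.94 on the log2 scale.

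The 8 erythroid genes under 2-fold were Hbb-bh1, Fech, Bpgm, Hbb-b1, Urod, Ermap, Hemgn and Tspo2. Several of these readings depended on the probe. The top probe of Hemgn, a red cell nuclear protein, gave 9055 and 8256 but shares 20 bases with probes of 47 other names, and the second probe gave 245 and 62.9, a difference of 1.95. The second Ermap probe likewise differed by 1.80, against 0.24 by the top probe. In the other direction, the second probe of Epor differed by -0.05, at 50.3 and 51.8. The 2 probes of Klf1 differed by 1.43 and 1.48.

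The globin genes are close copies, so the starts of their probes are printed to show which are distinct. The leading 30 of 60 bases of each probe are given as the array design lists them. The probes of Hba-a1 and Hba-a2, adult alpha globins on chromosome 11, are shown first, with the 29 bases shared within these starts in capitals, because the whole probes have a run of 59 bases in common:
Hba-a1: cTTCTTCTCTCCCTTGCACCTGTACCTCTT
Hba-a2: TTCTTCTCTCCCTTGCACCTGTACCTCTTg
They gave nearly the same values, 121932 and 47124 for Hba-a1 and 119376 and 44241 for Hba-a2. A second Hba-a1 probe gave 70113 and 18035, a difference of 1.95. The probes of the embryonic globins share no 20-base stretch with any other globin probe chosen here, on chromosome 7 for Hbb-y and Hbb-bh1 and chromosome 11 for Hba-x:
Hbb-y: aatgtgctggtgattgttttggctagtcac
Hbb-bh1: taaactccattccagtacactggcaatccc
Hba-x: cgccgtaggggatgcggttaagagcatcga
A second probe that carries the name Hbb-bh1, designed on another transcript, gave 135 and 72.7, about the same difference between the samples (0.88 against 0.86) at a far lower signal:
Hbb-bh1, second probe: gggccttgggtttgattctgagcattggaa

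Erythroid promoters commonly carry the motif of the GATA factors, so the promoters of 3 genes of this list are shown with AGATAA or TGATAA, read on either strand, in capitals. Each runs over the 250 bases before the start of the gene in RefSeq on GRCm38.p6. Hba-x lies at chr11:32276350-32276599 on the plus strand, Hbb-y at chr7:103853208-103853457 on the minus strand and Alas2 at chrX:150547167-150547416 on the plus strand:
Hba-x: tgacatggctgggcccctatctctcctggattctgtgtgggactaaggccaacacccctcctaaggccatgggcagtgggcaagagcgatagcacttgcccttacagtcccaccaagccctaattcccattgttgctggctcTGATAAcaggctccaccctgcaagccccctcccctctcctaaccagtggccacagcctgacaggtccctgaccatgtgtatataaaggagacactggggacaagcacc
Hbb-y: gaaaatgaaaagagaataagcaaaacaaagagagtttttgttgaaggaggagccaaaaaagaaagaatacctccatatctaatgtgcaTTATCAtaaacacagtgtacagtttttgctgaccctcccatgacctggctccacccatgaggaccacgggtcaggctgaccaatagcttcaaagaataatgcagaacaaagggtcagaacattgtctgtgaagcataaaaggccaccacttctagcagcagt
Alas2: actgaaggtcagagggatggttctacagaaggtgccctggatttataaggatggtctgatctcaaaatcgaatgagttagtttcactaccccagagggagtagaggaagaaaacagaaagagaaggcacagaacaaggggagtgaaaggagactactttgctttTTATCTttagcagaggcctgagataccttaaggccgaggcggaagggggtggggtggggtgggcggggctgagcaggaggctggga
The match begins 108 bases before the start in Hba-x, 162 in Hbb-y and 86 in Alas2. RefSeq promoters were given for 21 of the 33 erythroid genes (22 promoters), and 14 of these promoters hold 1 of the motifs, a share of 63.6%. Over all 32851 promoters of the same length the share was 16.6%. A match in the letters is not a bound site.

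**Figure D3:**
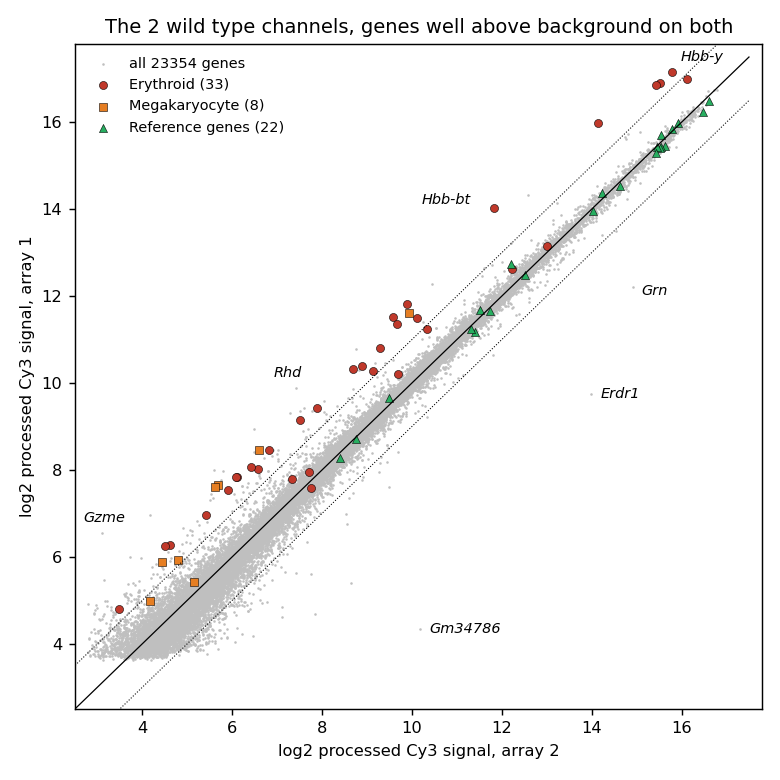
Log2 processed Cy3 signal on array 2 (horizontal) and array 1 (vertical) for the 23354 genes well above background on both arrays (grey), with erythroid genes as red circles, megakaryocyte genes as orange squares and reference genes as green triangles. The solid line marks equality and the dotted lines 2-fold, before scaling. Most erythroid and megakaryocyte genes lie above the upper dotted line over the whole range of signal, while the reference genes lie along the line of equality.

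Megakaryocyte genes and most macrophage genes were also brighter on array 1. All 8 megakaryocyte and platelet genes were brighter on array 1, and 6 by more than 2-fold, with a median difference of 1.54. Pf4, a platelet chemokine, had 3126 on array 1 and 979 on array 2. Ppbp, another platelet chemokine, had 202 and 51.5, and Gp9, a platelet adhesion receptor subunit, had 193 and 49.2. Of 17 macrophage genes 16 were well above background on at least 1 array, and 14 of these were brighter on array 1, 3 of them over 2-fold, with a median of 0.68. Lyz2, lysozyme, had 566 and 272, Tyrobp, a signaling adaptor, 445 and 214, and C1qc, a complement subunit, 233 and 97. Csf1r, the receptor needed by macrophages, had 1154 and 789, and its second probe, at 220 and 231, differed by -0.08. The macrophage genes brighter on array 2 were Itgam, with 1150 and 1268 by a probe that shares 20 bases with probes of 29 other names (0.28 by its second probe), and Ptprc, a surface phosphatase of all white blood cells, with 889 and 1150 (-0.38, and -0.59 by its second probe). Both were positive on both arrays, as were 5 of the macrophage genes brighter on array 1.

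Vessel genes had no such shift. The endothelial list had 9 genes brighter on array 1 and 13 on array 2, near the shares of 39.2% and 60.8% over all 27942 genes, and none over 2-fold. Those shares count genes well above background on array 2 alone. The list's median difference was -0.06, against -0.03 over genes well above background on both arrays. In the Cy5 channel of the same arrays, which holds luxoid RNA, the median difference of the erythroid list between the arrays was 0.30 and no gene of it was over 2-fold brighter on array 1. The share of blood in each dissected sample was not measured in another way, and its part in other differences between the samples was not tested.

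**Figure D4:**
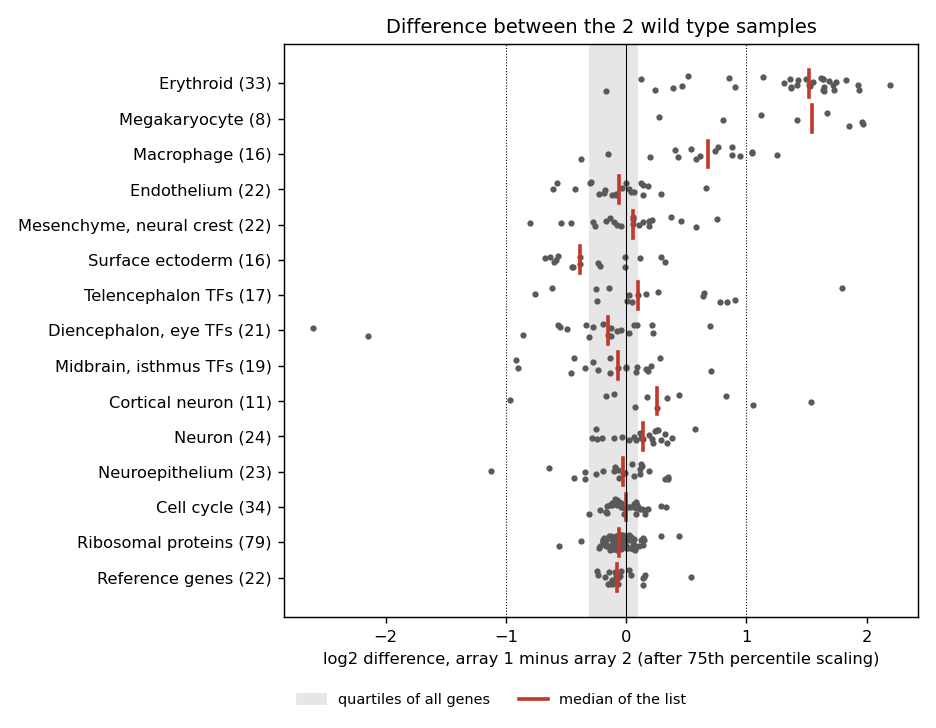
Log2 difference between the wild type samples, array 1 minus array 2 after scaling each array to its 75th percentile (horizontal axis), for the genes of each list that were well above background on at least 1 array (number in parentheses). Red bars are list medians, dotted lines mark 2-fold, and the grey band spans the quartiles over all 27942 such genes (-0.30 to 0.09). The erythroid and megakaryocyte medians lie beyond 2-fold at 1.52 and 1.54, and the macrophage median at 0.68.

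Some neural genes also differed between the samples. Emx1, a dorsal telencephalic homeodomain factor, had 159 on array 1 and 45.6 on array 2, a difference of 1.80. Tbr1 and Eomes, T-box factors of early cortical neurons and their precursors, had 69.4 and 23.7, and 52.7 and 21.9. Reln, secreted by the earliest cortical neurons, had 132 and 63.2. With Lhx2, Emx2 and Wnt8b, all of these were brighter on array 1, as were Fezf2 (0.64), Dmrt3 (0.65) and Bcl11b (0.83), which are also factors of the dorsal telencephalon or cortex. Each of Emx1, Tbr1, Eomes and Reln was well above background but not positive on both arrays. In the cortical neuron list, 11 genes were well above background on at least 1 array, 8 of them brighter on array 1 and 3 on array 2. Those 3 were Calb2 (5.96 and 11.6), Trp73 (81.0 and 86.1) and Pou3f2 (595 and 665).

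Other regional factors were brighter on array 2. Six6, of the eye and hypothalamus, had 48.8 on array 1 and 215 on array 2, a difference of -2.15. Rax differed by -0.86, Dlx1 by -0.76, Dlx5 by -0.62, Foxa2 by -0.46, and Phox2a, a factor of midbrain and hindbrain motor neurons, by -0.91. In the whole lists 12 of 17 telencephalic genes were brighter on array 1, against 39.2% of the 27942 genes. That share counts genes well above background on array 2 alone, while all 17 reached that level on both arrays. Of 21 diencephalic and eye genes 15 were brighter on array 2, against 60.8% of the 27942 genes. This share likewise counts genes well above background on array 2 alone, while 19 of the 21 reached that level on both arrays. The list's median difference of -0.15 lay within the quartiles over the 27942 genes. Among the genes of these lists well above background on both arrays, Emx1 and Six6 were over 2-fold apart. In the midbrain list, Otx2 and En2 differed by -0.13 and -0.28, beside an SD of 0.20 in the brightest class of genes, to which both belong. Whether the pieces of tissue taken, the stage or another property of the samples moved with these genes was not tested.

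Among all genes well above background on both arrays, the largest differences fell on few known brain genes. Brighter on array 1 were Gzme, a granzyme of cytotoxic cells, with 93.3 and 8.52 (3.44), Rhd, a red cell membrane protein, with 941 and 171 (2.45), and the X-linked Xlr4b and Xlr3b with 488 and 89.6, and 254 and 48.2. A second probe of Rhd differed by 1.93 and a second probe of Xlr4b by 2.99. Hbb-bt, Gm3764, 1300017J02Rik, Lrfn2 and 2 unnamed transcripts were the others among the 10 largest. Foxf1, a factor of visceral and vascular mesenchyme, was a positive gene outside blood, with 649 and 219 (1.56).

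Brighter on array 2 were Gm34786, with 20.3 on array 1 and 1157 on array 2 (-5.84), and Erdr1, with 864 and 16285 (-4.24). A second Gm34786 probe differed by -5.25. Syt10, a synaptotagmin, had 42.2 and 397, AF366264 had 25.8 and 230, Grn, progranulin, had 4765 and 30896, and Cryaa, a lens crystallin, had 18.2 and 87.3. The others among the 10 largest were Six6, Gm4792 and 2 unnamed transcripts. The Cy5 channel of the same arrays differed by similar amounts for Syt10 (-3.14), Grn (-2.69) and Cryaa (-2.12), and the second Grn probe, at 5040 and 4548, differed by 0.14. The Cy5 channel did not share the difference for Gm34786 (0.39), Erdr1 (0.76), Six6 (0.23), Gzme (-0.66) or Xlr4b (-0.65). Of the 432 genes over 2-fold apart and well above background on both arrays, 360 had the same sign in the Cy5 channel and 79 were over 2-fold apart there in the same direction.

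The count of genes brighter on array 2 came mainly from dim genes. Of the 1763 genes over 2-fold brighter there, only 210 were well above background on both arrays, and of the 333 over 2-fold brighter on array 1, 222 were. Another 4473 genes were well above background on array 2 alone and 115 on array 1 alone. For these only a lower bound of the fold can be had, measured against the dimmest signal that was well above background on the other array. By this bound 164 genes were at least 2-fold brighter on array 2 and 86 at least 2-fold brighter on array 1.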

How the data were processed

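The deposited scanner files hold the intensity of every spot in both channels. Per the file headers, the authors' Feature Extraction software (version 10.7.3.1) removed background and balanced Cy3 against Cy5 by LOWESS on rank-consistent probes, so the Cy3 signal rests partly on the Cy5 sample, and arrays were not normalized to each other. From this processed signal, control spots and the outlier spots (103 on array 1, 80 on array 2) were dropped, spots of a probe were averaged as log2 values, and the probe with the highest mean stood for its gene name. Differences were taken after dividing by each array's 75th percentile. The signal-to-noise ratio is spot mean minus median background, over the SD of background pixels. A deposited table of ratios was not used, and the luxoid comparison was not analysed here.

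The 49 gene lists, the members and the rules were chosen with earlier results of these data known. Named genes were the 15 highest, the 3 highest and the lowest of each list, the 10 largest differences each way, list members past 2-fold, Zbtb16, Pax6, Shh, Actb and Gapdh. Not all genes these rules select are named, and some are not reported here, and others are named for their role, after their values were seen. No test was run. Used were R 4.3.3 with limma 3.58.1 (normexp) and data.table (1.17.8), and Python 3.11.15 with matplotlib 3.10.9, scipy 1.17.1, pandas 2.3.3 and numpy 2.4.6. The procedure was tested on simulated data. Scaling, background correction, probe rule, filter, signal minimum and fold were varied.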

Additional observations from a re-analysis of the deposited data

How the results depend on the processing

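The erythroid median difference lay between 1.19 and 1.53 over 9 alternatives. The median differences of the other 48 lists moved by less than the SD of single genes (0.53) in 426 of 429 alternatives. That SD is wider than most list medians, so this count cannot show that a small median held its sign or size. The megakaryocyte median, past 2-fold in the text, lay between 1.03 and 1.67. The macrophage median lay between 0.51 and 0.72, the surface ectoderm median between -0.40 and -0.31, and the telencephalic median between 0.08 and 0.17. The counts depended on the setting. Genes over 2-fold brighter on array 1, 333 in the text, numbered 73 with normexp (offset 50), which compresses dim signals, 38 among positive genes and 1025 with no filter, and 786 at 1.5-fold and 1596 at 1.3-fold. Those brighter on array 2, 1763 in the text, numbered 1153 with quantile normalization, 235 from the spot signal before dye normalization, 25 with normexp, 12 among positive genes and 210 with the filter added after seeing the data, and 3737 at 1.5-fold and 5820 at 1.3-fold. Which step of the dye normalization moved this count was not tested. On single arrays between 23469 and 27827 genes were well above background and between 11005 and 11046 were positive. At a signal minimum of 100 and 500, 13320 and 7481 genes were positive on both. With the mean over probes the median percentile fell in 27 of 49 lists, by up to 17.2 points. No paired analysis was possible because there is 1 group. Leaving out either array leaves no difference to measure.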
